A study of Mus musculus with 2 samples.

Results

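Imprinted genes are expressed mainly from the chromosome inherited from a single parent. Their chromatin was described here from the ATAC-Seq peaks of mouse embryonic stem cell (ESC)-derived cardiac progenitor cells (CPCs). The members were 42 genes from 18 imprinted loci, and a peak belonged to a member where the gene symbol deposited with that peak was the name of the member. By this rule 68 of the 26232 distinct peaks were assigned to 34 members, and 8 members had no peak. ATAC-Seq uses the Tn5 transposase to cut open DNA. Both samples were CPCs at day 5 of directed differentiation, without knockdown, from E14 Tg(Nkx2-5-EmGFP) ES cells kept on mouse feeder cells, passages 16-20, with the strain given as C57BL/6. The 2 replicates formed 1 group and were deposited as 1 peak list on mm9. Isl1 knockdown cells, which the series names, were not analysed here.

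At imprinted loci, DNA methylation laid down in the egg or the sperm marks germline differentially methylated regions (DMRs). These imprinting control regions (ICRs) control expression of the genes around them, and the unmethylated allele is often open. The zinc finger protein ZFP57 binds its hexamer when the CpG in it is methylated and, with its partner TRIM28, preserves that methylation, while CTCF binds the unmethylated ICR between H19 and Igf2 and acts there as an insulator. Many imprinted genes regulate growth of the embryo and placenta.

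The list held no score and no value per replicate, so depth was unknown, no replicate error could be given and no test was possible. Shares carry 95% Wilson confidence intervals, which cover counting error only. Alleles were not separated, so peaks from 1 or both chromosomes cannot be told apart, and the absence of a peak does not measure closed chromatin. A peak open in few cells and a weak peak in all cells cannot be told apart either. Of the cardiac progenitor markers 8 of 9 had a peak, with 8 peaks at Isl1 and 3 at Nkx2-5 and none at Hand2. Peaks also lay at 4 of 5 pluripotency markers (none at Pou5f1), 3 of 4 feeder fibroblast markers and 2 of 3 endoderm markers. Of all protein coding genes 62.5% had a peak, so such counts do not tell cell types apart. The part of other cells in the results was not tested.

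The sequences shown first come from the peaks of imprinted genes that were richest in the ZFP57 hexamer, TGCCGC, or GCGGCA on the other strand. They are shown because peaks with at least 3 matches belonged mostly to genes with a germline DMR at their promoter. Of the 68 peaks 9 had at least 3 matches (13.2%, 7.12 to 23.3%), compared with 5.92% of all peaks. They were assigned to Mest (11 matches), Peg3 (8), Snrpn (7), Rasgrf1 (6), Ascl2, Grb10 and Nespas (4 each), and Airn and Mcts2 (3 each). From general knowledge, 7 of these 9 genes have a germline DMR at their promoter, while Ascl2 and Rasgrf1 do not. Of all 34 members with a peak, 15 have such a DMR, and the difference was not tested. Given here are the 150 bp stretches with the most matches outside annotated exons, on the plus strand of mm9, with the hexamer in capitals. The peaks of Ascl2 and Grb10 held no 150 bp stretch free of exons with a match.
Mest, chr6:30687576-30687725: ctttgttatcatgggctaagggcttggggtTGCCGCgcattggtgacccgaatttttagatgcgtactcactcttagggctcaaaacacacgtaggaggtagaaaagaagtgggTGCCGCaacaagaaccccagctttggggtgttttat
Peg3, chr7:6682753-6682902: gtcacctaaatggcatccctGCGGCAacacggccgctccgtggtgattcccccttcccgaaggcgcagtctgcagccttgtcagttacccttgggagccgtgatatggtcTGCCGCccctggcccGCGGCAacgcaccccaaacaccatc
Snrpn, chr7:67149284-67149433: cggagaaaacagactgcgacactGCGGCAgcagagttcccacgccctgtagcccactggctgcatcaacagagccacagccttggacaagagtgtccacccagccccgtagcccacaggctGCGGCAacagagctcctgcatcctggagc
Rasgrf1, chr9:89774593-89774742: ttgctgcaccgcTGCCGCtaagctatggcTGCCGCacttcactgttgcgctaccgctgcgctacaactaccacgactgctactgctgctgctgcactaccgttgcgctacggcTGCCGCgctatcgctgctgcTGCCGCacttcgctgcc
Nespas, chr2:174121347-174121496: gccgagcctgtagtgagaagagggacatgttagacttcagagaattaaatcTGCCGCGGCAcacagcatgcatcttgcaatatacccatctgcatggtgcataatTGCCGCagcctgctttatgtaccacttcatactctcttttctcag
Airn, chr17:12934570-12934719: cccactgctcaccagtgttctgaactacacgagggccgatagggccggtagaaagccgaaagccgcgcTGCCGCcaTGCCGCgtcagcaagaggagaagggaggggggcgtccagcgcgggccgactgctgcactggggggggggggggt
Mcts2, chr2:152512549-152512698: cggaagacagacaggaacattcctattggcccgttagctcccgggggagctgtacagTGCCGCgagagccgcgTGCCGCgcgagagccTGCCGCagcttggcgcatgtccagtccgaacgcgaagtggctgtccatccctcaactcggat
In the Nespas stretch 2 overlapping matches on opposite strands form a single run of capitals. A match is only a stretch of letters, and neither methylation nor ZFP57 binding was measured.

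The median density of the hexamer was higher near starts of genes with a germline DMR at their promoter than near those of the other members. Genes were classed as a whole, so a peak can lie at a start without the DMR. In the 10 peaks within 1 kb of the transcription start site (TSS) of genes with a germline DMR, the median was 1.63 matches per kb (range 0 to 6.42). They included both Gnas peaks (1.1 and 0.83). The peaks over a start of Peg3 (1.92) and Grb10 (2.39) lay beyond 1 kb of the assigned TSS and were left out. For the 13 peaks within 1 kb of other imprinted genes the median was 0.65 (range 0 to 1.52), close to 0.584 in all 11772 peaks within 1 kb of a TSS. The ranges overlapped. The high values came from Snrpn with 6.42 matches per kb, Mest with 5.09, Nespas with 3.37 and Airn with 3.12. The peaks at the start of Kcnq1ot1 and Zrsr1, both with a germline DMR, had 0 matches. Over the central 500 bp the presence of at least 1 match did not separate imprinted genes from the list, with 22.1% (13.8 to 33.3%) of their peaks against 24.4% of all peaks. Within 1 kb of a TSS these shares were 43.5% (25.6 to 63.2%) and 39%. A part of the CTCF motif, GGNGGCAG on either strand, was found in the central 500 bp of 22.1% of the imprinted gene peaks and 26.4% of all peaks. Where N is C the latter motif contains GCGGCA, so that a site can count for both.

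**Figure D1:**
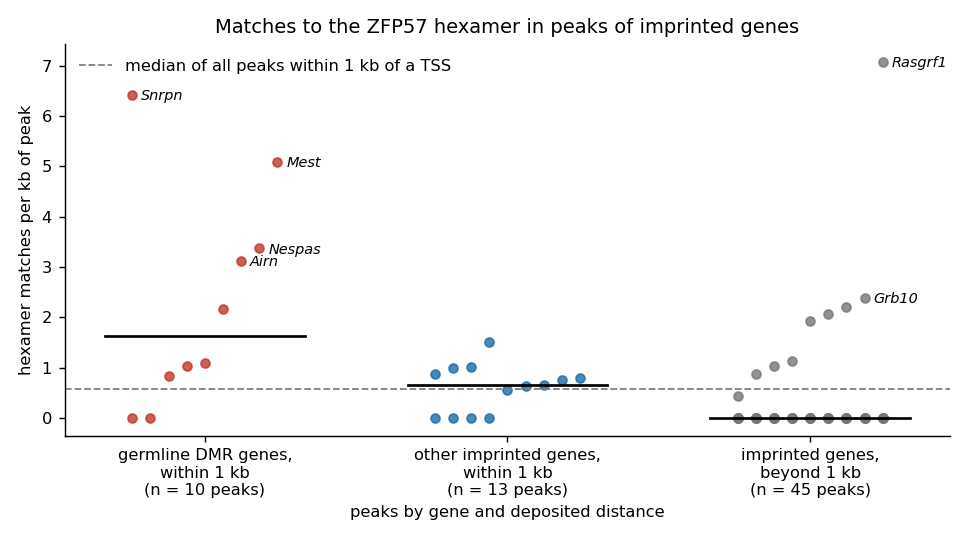
Matches to the ZFP57 hexamer per kb in each peak of an imprinted gene, by the presence of a germline DMR at the promoter of the gene and by deposited distance, with the group median as a black line and the median of all peaks within 1 kb of a TSS as a dashed line. Snrpn at 6.42 and Rasgrf1 at 7.08 matches per kb stand highest. Peaks within 1 kb of genes without such a DMR reach no more than 1.52.

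The number of peaks per member ranged from 0 to 6. A single peak was assigned to 15 members, 2 peaks to 11 and 3 or more to 8, a mean of 1.62 per member with zeros included. For the coding members alone the mean was 1.68, compared with 1.04 for all protein coding genes. Among genes with a peak it was 2 for members and 1.71 for all genes. Of the 34 protein coding members 28 had a peak (82.4%, 66.5 to 91.7%), compared with 62.5% of 21900 protein coding genes. Of 7 long noncoding RNA (lncRNA) members 5 had a peak (71.4%, 35.9 to 91.8%), compared with 8.63% of 12731 lncRNA genes of the reference table, which belongs to a later assembly than mm9. Genes missing from the annotation behind the deposited symbols could not receive a peak, so 8.63% is not a like background. By GENCODE start sites, 2 of 6 noncoding members were covered, compared with 27.2% of noncoding genes. The highest counts were 6 peaks at Slc38a4, which encodes an amino acid transporter, 5 at Dlk1, a Notch ligand family member, and 4 each at the neighbours Peg13 and Trappc9. Among the 15351 genes with a peak, 300 had at least 6.

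**Figure D2:**
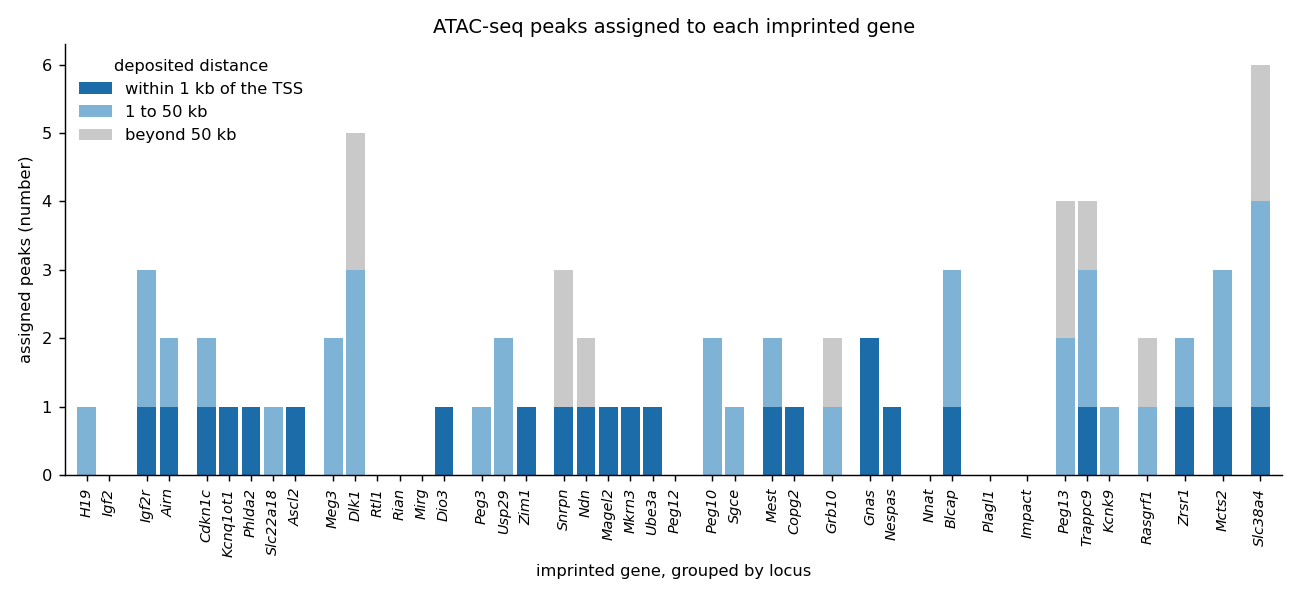
Number of peaks assigned to each of the 42 imprinted genes, grouped by locus, with colours for the deposited distance between TSS and peak midpoint. Bars reach 6 peaks at Slc38a4 and 5 at Dlk1, and 8 genes have no bar.

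Peaks of imprinted genes lay farther from start sites by the median, with an absolute distance of 13555 bp against 4154 bp for all peaks. The difference was not tested. Within 1 kb of the assigned TSS were 23 of 68 peaks (33.8%, 23.7 to 45.7%), against 44.9% of all peaks. Between 1 and 10 kb were 13.2% against 13.8%, between 10 and 50 kb 35.3% (25 to 47.2%) against 24.4%, and beyond 50 kb 17.6% (10.4 to 28.4%) against 17%. The shares of all peaks lay within the intervals for imprinted genes, except between 10 and 50 kb, where 24.4% was just below the interval. When peaks were given to the gene of the nearest GENCODE TSS instead, 43.6% of 55 peaks lay within 1 kb. The share of all peaks under that assignment is not given here, and 44.9% is not a like background for it. Upstream of the TSS were 38 peaks (55.9%, 44.1 to 67.1%), against 40.3% of all peaks, which lay below that interval. Midpoints fell in intergenic sequence for 29 peaks, in introns for 25, in coding exons for 4 and in other exons for 10.

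Peak widths were close to those of the list. The median was 1000 bp (range 479 to 4172 bp) against 1081 bp for all peaks. Within 1 kb of a TSS it was 1248 bp against 1326 bp, and beyond 10 kb it was 906 bp against 880 bp. The widest peak, 4172 bp, was assigned to Peg3, and 0.198% of all peaks were at least as wide. The next were those of Ascl2 (2637 bp), Gnas (2418 bp), Dlk1 (2292 bp) and Mest (2161 bp), for which 2.21% to 5.74% of all peaks were at least as wide. Within 1 kb, imprinted gene peaks had a median GC content of 58.7% and all such peaks 58.6%.

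**Figure D3:**
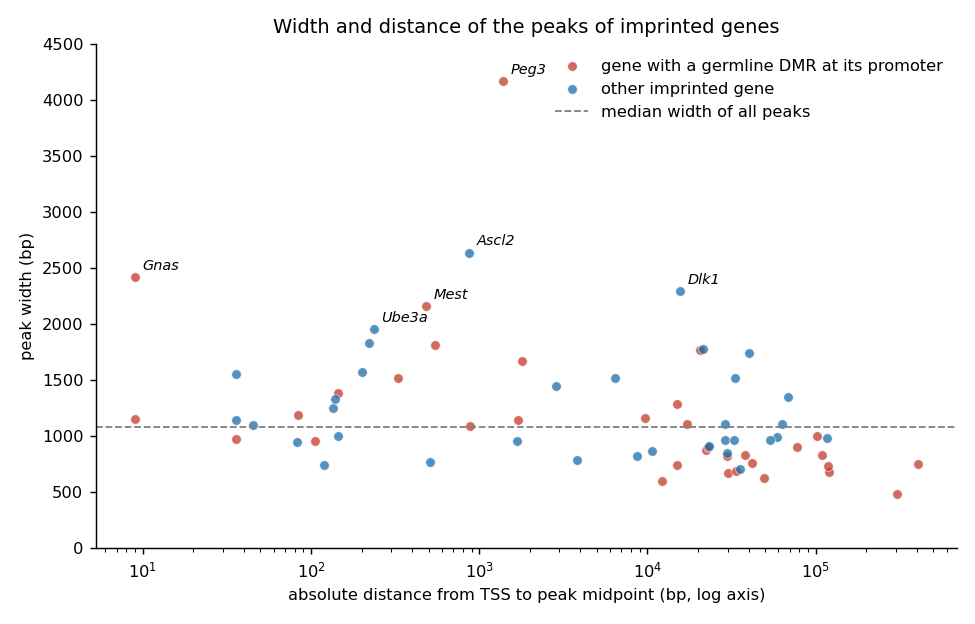
Width of the 68 peaks in bp against the absolute distance of their midpoint from the assigned TSS on a log axis, coloured by the presence of a germline DMR at the promoter, with the median of all peaks as a dashed line. The Peg3 peak of 4172 bp stands apart, and peaks beyond 10 kb are mostly narrower than the median of all peaks, 1081 bp.

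Coverage of start sites was compared by promoter class, because most CpG-rich promoters in the list carried a peak. Promoters were taken as 500 bp upstream and downstream of the most upstream TSS of a gene. They counted as CpG-rich where GC made up 50% or more of the bases and CpG reached 0.6 or more of the number that their C and G content gives. A peak covered a GENCODE TSS at 11 of 20 CpG-rich protein coding members (55%, 34.2 to 74.2%), compared with 89.6% of 9879 such genes. At CpG-poor promoters the count was 7 of 14 (50%, 26.8 to 73.2%), compared with 28.9% of 12488. The class came from the most upstream TSS, while any TSS of the gene could be covered, and at Mest, Grb10 and Blcap the covered starts were others, in peaks with CpG ratios of 0.67, 0.96 and 0.72. Usp29 was classed CpG-poor and uncovered by its GENCODE model, whereas its start by the deposited distances lay in the Peg3 peak. Counting the most upstream TSS alone, a choice made after seeing the data, gave 4 of 14 CpG-poor members (28.6%, 11.7 to 54.6%), compared with 22.4%, and again 11 of 20 CpG-rich members, compared with 88.4%. With any TSS the classes together gave 18 of 34 (52.9%, 36.7 to 68.5%), compared with 55.7% of all protein coding genes, and the background lay above the interval of the CpG-rich class and within that of the CpG-poor class. These differences were not tested. Of the noncoding members 2 of 6 had a covered TSS, compared with 27.2% of the noncoding genes. When a peak within 500 bp of a TSS was enough, 14 of 20 CpG-rich members counted (70%, 48.1 to 85.5%), compared with 90.4%.

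The 9 CpG-rich members without a covered TSS differed in how near a peak came to an annotated TSS. Gaps were 125 bp at Zrsr1, an intronless gene inside Commd1, 141 bp at Mkrn3, a ring finger gene, and 495 bp at Plagl1, a growth-regulating zinc finger gene. They were 1128 bp at Peg10 and 1230 bp at Sgce, which share 1 germline DMR. At Nnat, encoding neuronatin, the gap was 4865 bp. At Kcnk9, a potassium channel gene, Rasgrf1, a Ras exchange factor gene, and Peg12 the gaps were 28597, 29441 and 44498 bp. The Zrsr1 peak did cover the start site implied by the deposited distances. With such implied start sites counted too, a choice made after seeing the data, 23 of 42 members were covered, against 20 of 40 with GENCODE alone.

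**Figure D4:**
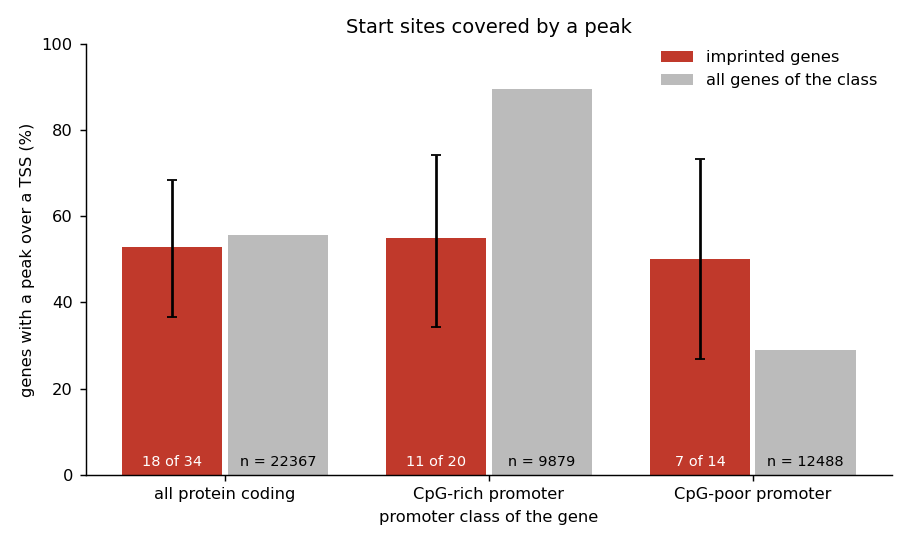
Percentage of protein coding genes with a peak over any annotated TSS, by the CpG class of the most upstream TSS, for imprinted genes (red, with 95% Wilson intervals and counts) and for all genes of the same class (grey, with n). Imprinted genes are at 55% against 89.6% in the CpG-rich class and at 50% against 28.9% in the CpG-poor class.

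By GENCODE start sites alone, covered starts were as frequent among members with a germline DMR at their promoter as among the others. Of the former 8 of 16 (50%, 28 to 72%) had a covered GENCODE TSS, and of the latter 12 of 24 (50%, 31.4 to 68.6%). Any annotated TSS of the gene counted, whether or not the DMR lies there. With implied start sites the first count became 11 of 18, by Usp29, Zrsr1 and Kcnq1ot1, and the second count did not change. By the allele known to be expressed, 11 of 17 maternally expressed members (64.7%, 41.3 to 82.7%) and 9 of 23 paternally expressed members (39.1%, 22.2 to 59.2%) were covered, with overlapping intervals. All of these classes mix coding and noncoding members. Over all genes, 55.7% of protein coding and 27.2% of noncoding genes had a covered GENCODE TSS. The parental class came from general knowledge of mouse tissues and was not measured in these cells.

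At the Igf2-H19 locus, the growth factor gene Igf2 had no peak and the noncoding RNA gene H19 had 1. That peak, chr7:149796367-149797881, was 1515 bp wide and lay 33072 bp upstream of the H19 TSS. It was also the peak nearest to the start sites of Igf2, with a gap of 45490 bp to the closest of its 9 annotated TSSs. The peak nearest to the start sites of H19 lay beyond the 3′ end of the gene and was assigned to Nctc1. Its gap was 10628 bp to the closest of the 5 annotated H19 TSSs. The ICR lies just upstream of H19, where the list held no peak.

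The Kcnq1 locus had a peak at the start of 4 of its 5 members. Kcnq1ot1 is the paternally expressed RNA that silences neighbouring genes. Its peak was 1151 bp wide, with its midpoint 9 bp upstream of its start in an intron of Kcnq1 (chr7:150481887-150483037). Cdkn1c, encoding a cell cycle inhibitor, had a TSS peak of 1572 bp and a peak of 910 bp at 23322 bp downstream. Phlda2, which restrains placental growth, had a TSS peak of 1550 bp, and Ascl2, a trophoblast transcription factor gene, had one of 2637 bp that also reached into its coding exon. Slc22a18, encoding a transporter, had a single peak of 787 bp at -3797 bp. A further 6 peaks of the domain were assigned to Tspan32, Cd81, Trpm5 and Kcnq1.

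At the Igf2r-Airn locus both start sites were covered. Igf2r encodes the receptor that clears the IGF2 protein, and its TSS peak (chr17:12962035-12963182) was 1148 bp wide with a CpG ratio of 0.89. The peak at the start of Airn, the antisense RNA that silences Igf2r, was 960 bp wide (chr17:12933804-12934763). Airn had another peak at -17120 bp, and Igf2r others at -10712 and -21409 bp, which lay within the Airn transcript.

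The Dlk1-Dio3 domain held 10 peaks, of which 6 were assigned to Mir1906-1, Mir3072 and 3110009F21Rik. All 5 peaks of Dlk1 lay upstream, from -58848 to -2853 bp, 4 of them outside the domain, and none covered its TSS. The noncoding RNA gene Meg3 had peaks at -40306 bp (1743 bp wide) and -1687 bp (955 bp wide). The Mir1906-1 peak, 793 bp wide with 4 matches to the CTCF motif part, lay inside Meg3. It was the peak nearest to an annotated Meg3 TSS, with a gap of 275 bp. Rtl1, a retrotransposon-derived gene, and the RNA genes Rian and Mirg had none, and the peaks nearest to their start sites were 56995, 60610 and 11581 bp away. Dio3, which encodes a thyroid hormone-inactivating deiodinase, had a TSS peak of 1095 bp.

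In the Peg3 locus the peak of 4172 bp (chr7:6679658-6683829) covered the start of Peg3, a zinc finger gene. Its neighbour Usp29 starts beside it in the opposite direction by the deposited distances, and that start lay in the same peak. The peaks assigned to Usp29 itself were 905 and 824 bp wide, at 22946 and 29650 bp downstream. Zim1 had a TSS peak of 997 bp. A further 5 peaks of the domain were assigned to Mir3099 and Zim3.

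**Figure D5:**
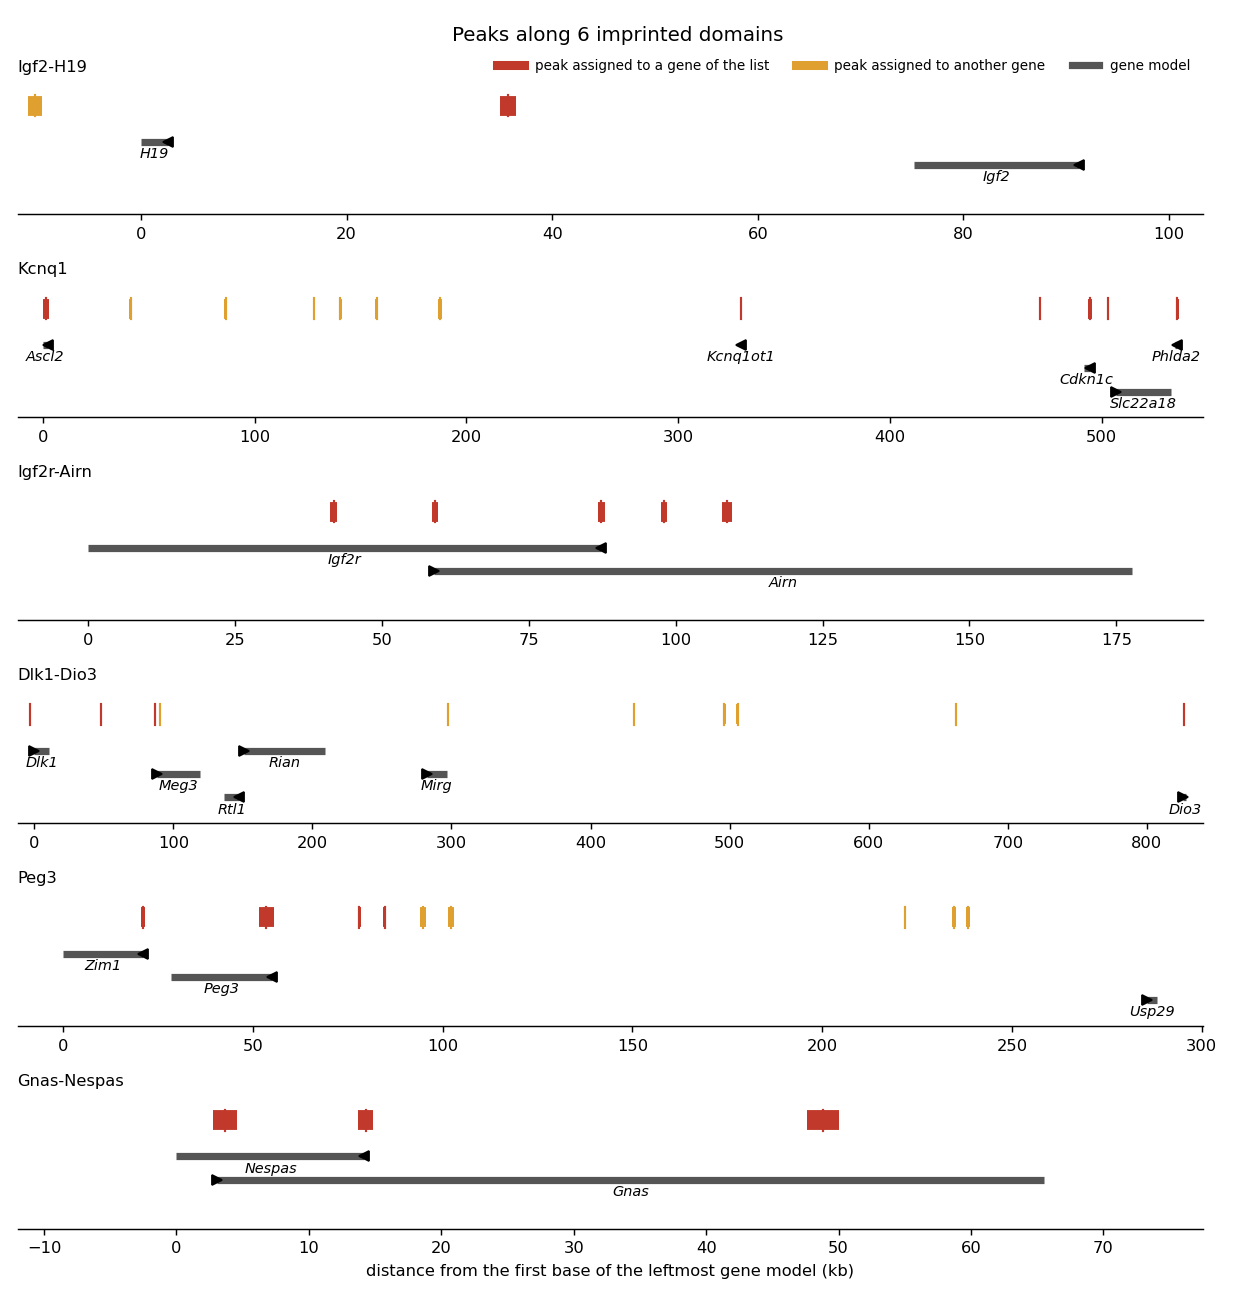
Peaks (red where assigned to a listed gene, orange where assigned to another gene) above gene models (grey, with an arrowhead at the start and in the direction of transcription) in 6 imprinted domains, in kb from the first base of the leftmost model. Usp29 is drawn at its GENCODE model, which holds a distant coding part, and Kcnq1ot1 as its start only. The H19 to Igf2 interval holds 1 peak, and the Peg3 peak is 4172 bp wide.

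The Snrpn-Ube3a domain, 3145.3 kb long and the locus of the Prader-Willi and Angelman syndromes, had the lowest peak density of the domains with a peak. It held 8 peaks, or 2.54 per Mb, against 11.69 per Mb over chromosome 7. Of the 8 peaks 5 lay within 1 kb of a start site. Snrpn, a splicing protein gene, had a peak of 1091 bp in its intron at 877 bp downstream (chr7:67148621-67149711), 331 bp from the nearest annotated TSS. Its other peaks lay at -305851 and -407539 bp. Ube3a, a ubiquitin ligase gene, had a TSS peak of 1952 bp. Ndn and Magel2, both MAGE family genes, had TSS peaks of 739 and 949 bp, and the peak of Mkrn3 was 771 bp wide at 513 bp. Ndn had another at -117040 bp. Peg12 had none.

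Several smaller loci had a peak at a start of a gene with a germline DMR at its promoter. Whether these peaks lie at the DMR itself was not tested, because no DMR coordinates were used. Mest, encoding a hydrolase-like protein, had a peak of 2161 bp over its start (chr6:30686488-30688648) and another of 597 bp at -12195 bp, and its neighbour Copg2, a coatomer subunit gene, had a TSS peak of 1335 bp. In the Gnas locus, which encodes the stimulatory G protein subunit, peaks of 1813 bp and 2418 bp covered an upstream and a downstream start of Gnas, and 1 of 1186 bp covered that of the antisense RNA Nespas. The peak of Grb10, an adaptor that restrains growth, was 1673 bp wide with a CpG ratio of 0.96 (chr11:11925354-11927026) and lay 1785 bp downstream of the assigned start, over another GENCODE TSS. Grb10 had another peak at -109400 bp. Mcts2 and Zrsr1, retrogenes inside H13 and Commd1, had start peaks of 1389 and 1514 bp. The further peaks lay at 9704 and 20411 bp for Mcts2 and at -14914 bp for Zrsr1. The start peak of Slc38a4 was 972 bp wide, and its other 5 peaks lay between -33811 and 118962 bp.

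In the Peg10-Sgce, Peg13-Trappc9-Kcnk9 and Nnat-Blcap loci, Trappc9 and Blcap had a peak at their start and the other members did not. Peg10, a retrotransposon-derived gene of the placenta, had peaks at 1701 and 15057 bp, and Sgce, encoding a sarcoglycan, had 1 in its intron at 37870 bp. None of the 4 peaks of the noncoding RNA gene Peg13 lay at its implied start; the nearest was at -42073 bp. Trappc9, the trafficking gene that holds Peg13 in its intron, had a TSS peak of 1829 bp and others at -6390, 32619 and 68456 bp. Kcnk9 had a single peak at 29081 bp in its intron. Blcap, whose intron holds Nnat, had a TSS peak of 1248 bp and others at -8712 and -35401 bp. Nnat, Plagl1 and Impact, which have a germline DMR at their promoter, had no peak. The peak nearest to a Plagl1 TSS was assigned to the noncoding RNA gene Hymai and that nearest to Nnat to Blcap. The peak nearest to the Impact TSS was assigned to Osbpl1a, with a gap of 16221 bp.

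The Rasgrf1 locus had a peak of 848 bp at -29865 bp (chr9:89774325-89775172) and 1 of 1107 bp in an intron at 63059 bp. The upstream peak had the highest hexamer density of all 68 peaks, with 6 matches or 7.08 per kb and a GC content of 64%. At least 6 matches were found in 6 of the 10848 peaks of the list beyond 10 kb (0.0553%). That cut-off was the count of the Rasgrf1 peak itself, which is among them, so the small share is no test. Rasgrf1 is known to be governed by a paternally methylated region upstream of its start. Whether the peak lies in that region was not tested, because no DMR coordinates were used here.

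Over all 18 domains, gene models with 10 kb on either side, 76 peaks lay in 6647.8 kb, or 11.43 per Mb against 9.88 over all chromosomes. Other symbols were on 21 of them, and 13 peaks of members lay outside their domain. The Impact domain held none. The domains are windows around genes, and 9.88 per Mb is not matched to their chromosomes. Over chromosomes that hold a domain, density ran from 8.33 per Mb on chromosome 18 to 16.51 on chromosome 11. Chromosome 7, with the longest domain, had 11.69 per Mb.

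Genes for the imprinting machinery were described in the same way. Of 20 regulators 18 had a peak (90%, 69.9 to 97.2%), beside 62.5% of all protein coding genes. A GENCODE TSS was covered at 16 (80%, 58.4 to 91.9%), beside 55.7% of all protein coding genes and 89.6% of those with a CpG-rich promoter. Dnmt1, the maintenance methyltransferase gene, had a peak of 2378 bp at 180 bp. Trim28 had 1 of 2942 bp, Ctcf 1 of 1919 bp and Zfp57 1 of 1440 bp within 1 kb of their start. Dnmt3l, a cofactor of germline methylation, and Dppa3, which protects the maternal genome from demethylation, had none. Dnmt3a had the most, with 6.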

How the data were processed

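Data were ATAC-Seq peaks of 2 replicate CPC samples, independent differentiations per the study's methods. Per the labels and those methods, reads were aligned to mm9 with bowtie2, filtered with samtools and Picard 1.136, and peaks were called per replicate with MACS. Blacklisted peaks were removed, and bedtools 2.15 retained peaks sharing 1 bp or more with the second replicate. The authors deposited 1 list with 6 columns, unit other: intervals, signed distance in bp to a TSS, an accession and a symbol. Fixed calling parameters and unknown depth can change which peaks are listed and their width. No correction for the Tn5 cut position is described.

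Distinct intervals were counted once (26232 of 26429 lines). Sequence was that of NCBIM37 (mm9), with GENCODE vM1 as annotation. Of the members 40 had a GENCODE model, and 41 were in the RefSeq gene table, used for names and gene classes. The starts of Kcnq1ot1 and Peg13 came from the deposited distances. Functions were tested on simulated data. Python 3.11.15, pandas 2.3.3, numpy 2.4.6 and scipy 1.17.1 were used. Members and gene lists, and parental classes and germline DMRs from general knowledge, were chosen with earlier results of these data known. Values are given for every member with more than 1 peak or a peak within 1 kb, the rest by distance. No test between groups was possible. Alternatives were repeated lines, width filters, gene assignment, distances, start sites and domain limits.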

Additional observations from a re-analysis of the deposited data

How the results depend on the processing

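Of 48 combinations of 12 results with alternatives, 41 stayed within their interval or within 1.5 times the count. The 7 that moved all came from keeping peaks wider than the median of the list, which by construction removes narrow peaks. With it, 33 peaks remained for members, their median width was 1514 bp, 51.5% lay within 1 kb and 6.06% beyond 50 kb of the TSS, and the mean per member was 0.786. Domains held 42 peaks, and 16 other imprinted genes had a peak. Assigning peaks to the nearest GENCODE TSS gave 32 members with 55 peaks, 43.6% of them within 1 kb, without a like share of all peaks. Counting the most upstream TSS alone lowered the covered CpG-poor coding members from 7 to 4. Counting start sites implied by the deposited distances and, by promoter class, the most upstream TSS alone were chosen after seeing the data. Leaving out a replicate was not possible, since the list holds no value per replicate. No paired analysis was possible because both samples belong to 1 group. Depth limits what a missing peak shows, and is unknown.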

Other observations

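A list of 36 further imprinted genes, taken from general knowledge as imprinted in some tissues, had a peak at 29 (80.6%, 65 to 90.2%), beside 62.5% of all protein coding genes. A GENCODE TSS was covered at 21 of 33 with a model (63.6%, 46.6 to 77.8%), beside 55.7%. The most were 6 at Sfmbt2, a Polycomb-related gene, none of which lay within 1 kb of its start. Atp10a, Inpp5f, Ppp1r9a and Zdbf2 had 4 each, with 1 within 1 kb. Near Igf2r, the transporter genes Slc22a2 and Slc22a3 had none, and neither did Ins2 near Igf2.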
